A study of Arabidopsis thaliana with 12 samples.

Results

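Abscisic acid is the plant hormone of water deficit and of closed stomata, and 10 genes of its synthesis and response were followed here in leaf mRNA of wild type *Arabidopsis* and of the *trm5-1* mutant. They were taken by locus from the deposited gene counts, which list 33610 genes: *NCED3* (AT3G14440), *ABI1* (AT4G26080), *ABI2* (AT5G57050), *HAB1* (AT1G72770), *PP2CA* (AT3G11410), *ABI5* (AT2G36270), *ABF3* (AT4G34000), *RD26* (AT4G27410), *RD29B* (AT5G52300) and *RAB18* (AT5G66400). All 10 passed the filter on low counts, *RD29B* through the *trm5-1* libraries alone. The study was about TRM5, an enzyme that methylates tRNA next to the anticodon, its activity and its importance for growth. A part of it compared mRNA and protein levels of the mutant with those of wild type. Leaves of 20-day-old wild type plants (Col-0) and of homozygous *trm5-1* plants in the same Columbia background each gave 3 RNA-seq libraries, numbered as replicates 2, 3 and 4. The mutant is a single T-DNA insertion line, no hormone or water stress treatment is given for either genotype, and the methods state neither the hour of harvest nor how many plants went into a library. The age is that of the labels and the methods, while the labels' extraction text and a legend of the paper speak of 10-day-old seedlings.

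Abscisic acid is made from carotenoids. The cleavage by a 9-cis-epoxycarotenoid dioxygenase is the step that usually limits its synthesis, and in drying leaves *NCED3* encodes the main enzyme. The hormone binds receptors of the PYR/PYL family, which then hold and inhibit the clade A protein phosphatases 2C (among them ABI1, ABI2, HAB1 and PP2CA). SnRK2 kinases are thereby freed and phosphorylate bZIP transcription factors such as ABF3 and ABI5. These factors bind the abscisic acid response element, whose core is ACGT, in front of genes such as *RD29B* and *RAB18*. The phosphatase genes are themselves induced by the hormone, which makes the pathway a negative feedback loop.

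Libraries held 14954658 to 26927531 counts. *TRM5* (AT3G56120) itself received 179, 643 and 526 counts in the wild type libraries against 100, 72 and 110 in the mutant, a log2 fold change of -2.25 ± 0.31 (SE, adjusted p = 0.0226, edgeR), so the labels go with the genotype. Libraries of one genotype differed widely. Photosystem mRNA of *LHCB1.1* lay at 47.0, 7911 and 4641 CPM (counts scaled to a common library size) in wild type replicates 2, 3 and 4, so replicate 2 stood apart. Replicate 4 lay between replicates 2 and 3 for 81.3% of the 19408 genes tested in wild type and for 68.4% in *trm5-1*, and for 10 and 7 of the 10 abscisic acid genes. The tests nonetheless treat the 3 libraries as independent samples. The 4 mesophyll markers were present in all libraries, with a summed level of 13599 to 25235 CPM in wild type and 5192 to 10417 in *trm5-1*. All 4 were lower in *trm5-1* without overlap, as were 20.0% of all genes tested. *LHCB1.1* and *LHCB2.1* were called lower (7.15% of all genes tested were), with log2 fold changes of -8.11 and -5.79. These sizes rest on wild type replicates 3 and 4. In wild type replicate 2, *LHCB1.1* lay at 47.0 CPM against 13.5 to 17.7 in *trm5-1*. *LHCB2.1* lay at 54.6, 2287 and 1399 CPM in wild type and at 28.3, 16.4 and 22.8 in *trm5-1*. Of 8 guard cell markers 3 were called lower (*MYB60*, *KAT2* and *GORK*), against 7.15% of all genes tested, and 7 of the 8 were fitted lower. The summed level of the 8 was 63.9 to 97.5 CPM in wild type and 69.2 to 78.5 in *trm5-1*, with overlap. *ALMT12*, the one fitted higher, had 38.5, 3.68 and 16.6 CPM in wild type and 34.5, 39.6 and 35.5 CPM in *trm5-1*. Without *ALMT12* the sum was 59.0 to 62.6 CPM in wild type and 34.7 to 38.9 in *trm5-1*, with no overlap. That marker was left out after its values were seen. The 3 phloem markers summed to 350 to 639 CPM in wild type and 511 to 521 in *trm5-1*, and the 6 seed markers to at most 0.224 CPM, with 2 of them at 0 in all libraries. Of 4 root markers 2 were at 0 in all libraries, and their sum reached 20.9 CPM in wild type replicate 3 and 5.15 in *trm5-1*. The 3 floral markers summed to 2.37 to 5.85 CPM in wild type and 0.610 to 0.889 in *trm5-1*, and *PI* and *AG* were called lower (*AG* passed the filter through wild type alone). The part of these markers in the results was not tested, and in bulk leaf RNA fewer cells of a type cannot be told apart from less RNA per cell.

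The response element was looked up in front of the 10 genes, since their known common trait is control by the hormone. In the 300 bases before the annotated gene start in TAIR10.1 (RefSeq), the letters ACGTG occurred on either strand in 8 of 10, in all but *NCED3* and *ABI2*. They occurred in 26.1% of the 18810 tested protein-coding genes. The longer forms ACGTGGC or ACGTGTC, which contain ACGTG, were found in 7 of 10 genes and in 7.96% of the tested genes. The windows that follow are 30 bases each, written 5′ to 3′ on the strand of the gene, with the longer form in capitals. They show the targets *RD29B* and *RAB18*, whose promoters are the textbook cases of this element, and the phosphatase genes *HAB1* and *PP2CA* beside them.
RD29B, chr5:21236947-21236976, plus strand: aatgtcgcataGCCACGTagagagcaactg
RD29B, chr5:21236972-21237001, plus strand: aactggctgagACGTGGCaggacgaaacgg
RD29B, chr5:21236991-21237020, plus strand: ggacgaaacggacgcatcgtACGTGTCaga
RAB18, chr5:26519540-26519569, minus strand: ggaggagcattACGTGTCctgttagctacg
HAB1, chr1:27389918-27389947, plus strand: caaagactaatACGTGTCcttttattaatc
PP2CA, chr3:3586063-3586092, minus strand: actgtgattggGCCACGTtaacggcgtatc
PP2CA, chr3:3585942-3585971, minus strand: caccaaacggtACGTGTCggatcctgcccg
The matches began 63, 38 and 10 bases before the start of *RD29B*, 111 before that of *RAB18*, 19 before that of *HAB1*, and 231 and 110 before that of *PP2CA*. A match is only a description of these letters.

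Of the 10 genes, 4 had a lower and 6 a higher fitted mRNA level in *trm5-1*, and none passed the test. In the quasi-likelihood test of edgeR (Benjamini-Hochberg), 0 of 10 had an adjusted p under 0.05, against 11.4% of all genes tested (7.15% lower and 4.30% higher). An unadjusted p under 0.05 was reached by 4 of 10 (*ABI1* lower, *HAB1*, *ABF3* and *RD29B* higher), against 32.7% of all genes (19.2% lower and 13.6% higher). For the same 4 genes the CPM of the genotypes did not overlap, which was the case for 39.7% of all genes (20.0% lower and 19.7% higher). Both counts include *RD29B*, which had to be higher in *trm5-1* to be tested. The median log2 fold change of the 10 was 0.42, and that of all genes -0.00094. With DESeq2, *HAB1*, *ABI1* and *ABF3* passed (23.8% of all genes did, 14.7% lower and 9.11% higher). With limma on the authors' normalized values 0 of 10 passed, when 1064 lower and 770 higher of all 19408 genes tested did. An unadjusted p under 0.05 was reached in limma by 4 of 10, against 3387 lower and 2845 higher of all genes. With wild type replicate 2 left out, *HAB1* and *RD29B* passed in edgeR, when 37.6% of all genes did (21.5% lower and 16.2% higher). A p that misses the threshold does not show that the levels are alike.

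**Figure D1:**
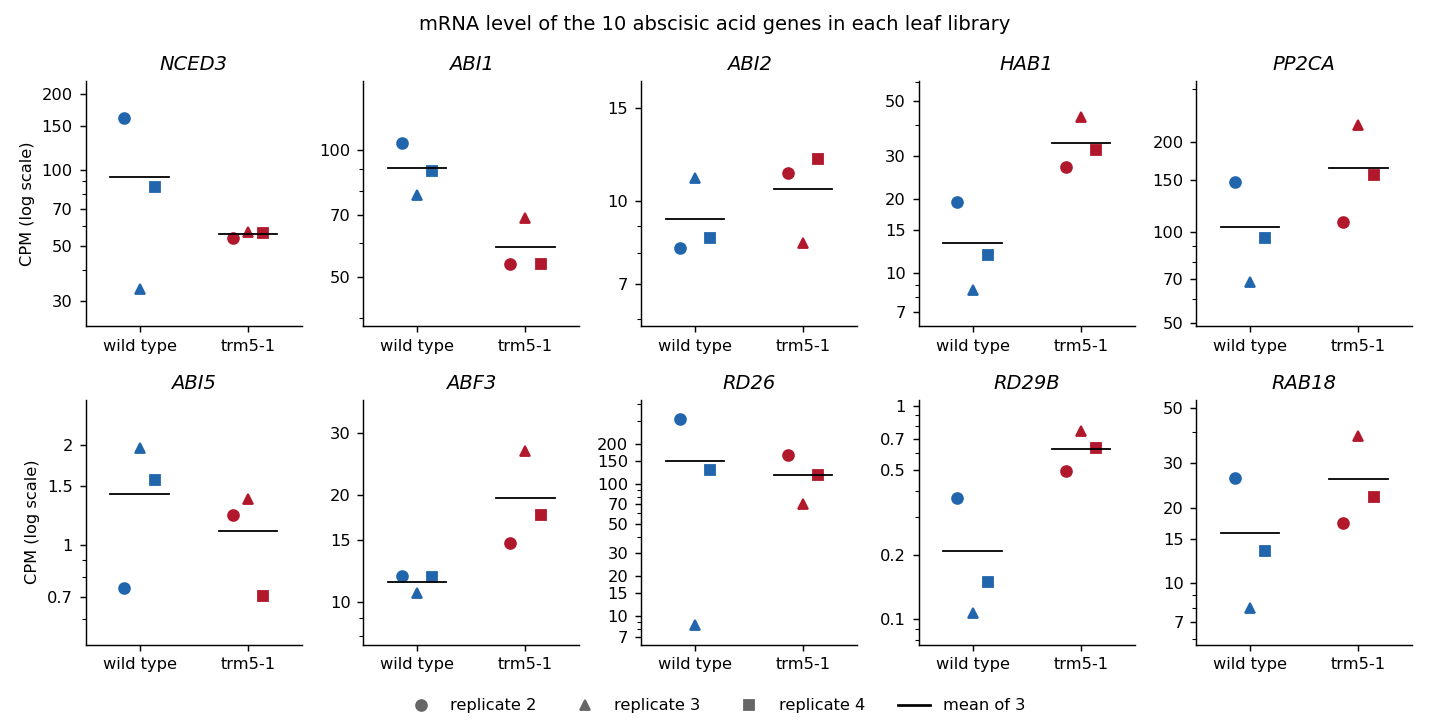
mRNA level of each of the 10 genes in CPM on TMM library sizes (y axis, log scale, a separate range in each panel) in 3 wild type (blue) and 3 *trm5-1* (red) leaf libraries, with the replicate number as the marker and the mean of 3 as a line. The genotypes are separate for *ABI1*, *HAB1*, *ABF3* and *RD29B*, and the *NCED3* levels of *trm5-1* (53.8 to 56.6 CPM) lie within those of wild type (33.5 to 161 CPM).

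*NCED3*, on chromosome 3 from 4831286 to 4834015 (TAIR10.1) and with a single exon, had 161, 33.5 and 85.4 CPM in wild type replicates 2, 3 and 4 and 53.8, 56.6 and 56.2 CPM in those of *trm5-1*. The mutant libraries were nearly equal, and wild type lay on both sides of them. The means were 93.4 ± 64.3 and 55.5 ± 1.51 CPM (SD, n = 3), and the log2 fold change was -0.75 ± 0.52 (SE, adjusted p = 0.351, edgeR). Without wild type replicate 2 it was -0.08 (adjusted p = 0.882), and without wild type replicate 3 it was -1.15 ± 0.27 (SE, adjusted p = 0.0616, edgeR), so its size depended on which of these libraries entered. The highest library was 4.82 times the lowest in wild type and 1.05 times in *trm5-1*.

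The 4 phosphatase genes did not move together. *HAB1*, on chromosome 1 from 27389948 to 27393327, had 19.5, 8.57 and 11.9 CPM in wild type and 27.02, 43.1 and 31.5 CPM in *trm5-1*. Every mutant library was above every wild type library. The mean was 2.54 times as high, with a log2 fold change of 1.35 ± 0.34 (SE, adjusted p = 0.0533, edgeR), just short of the threshold. This difference was past the threshold with DESeq2 (adjusted p = 0.00537), with upper quartile normalization in edgeR (0.0472) and without wild type replicate 2 in edgeR (0.00884). Without 1 of the other libraries the adjusted p was 0.0762 to 0.1999, and without replicate 4 of both genotypes it was 0.559 (edgeR).

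*ABI1*, on chromosome 4 from 13219915 to 13222376, had 104, 78.2 and 89.0 CPM in wild type and 53.6, 69.0 and 53.5 CPM in *trm5-1*. Here every mutant library was below every wild type library. The log2 fold change was -0.62 ± 0.18 (SE, adjusted p = 0.0729, edgeR). It passed with DESeq2 (adjusted p = 0.0312) and with upper quartile normalization in edgeR (0.0439). Neither tool nor any setting with 1 library left out turned its direction, which was also the case for *HAB1*. For genes whose genotypes do not overlap, leaving out a library could hardly turn the direction. The unchanged direction therefore gives no further support to either difference.

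*PP2CA*, on chromosome 3 from 3583782 to 3585850, had 148, 68.3 and 96.2 CPM in wild type and 108, 228 and 155 CPM in *trm5-1*. Replicate 2 of the mutant lay among the wild type libraries, so the genotypes overlapped. edgeR gave a log2 fold change of 0.66 ± 0.38 (SE, adjusted p = 0.277), which ran from 0.36 without *trm5-1* replicate 3 to 1.02 without wild type replicate 2. *ABI2*, the closest relative of *ABI1*, on chromosome 5 from 23087122 to 23089631, had 8.15, 11.1 and 8.53 CPM in wild type and 11.3, 8.35 and 12.04 CPM in *trm5-1*. Its genotypes overlapped as well, and its log2 fold change of 0.19 ± 0.22 (SE, adjusted p = 0.567, edgeR) was within the spread. How reads shared by close relatives were counted is not given, so the split of counts between *ABI1* and *ABI2*, and between *HAB1* and *HAB2*, is uncertain.

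Of the transcription factor genes, *ABF3*, a bZIP activator of response-element genes in leaves, on chromosome 4 from 16295334 to 16298285, had 11.9, 10.6 and 11.8 CPM in wild type and 14.7, 26.7 and 17.6 CPM in *trm5-1*. The wild type libraries were close to each other and all below the mutant ones. The log2 fold change was 0.79 ± 0.24 (SE, adjusted p = 0.0823, edgeR, and 0.0383 with DESeq2). *ABI5*, a bZIP factor best known from seeds and germination, on chromosome 2 from 15204659 to 15207636, had low levels of 0.741, 1.95 and 1.57 CPM in wild type (10, 55 and 42 counts) and 1.23, 1.37 and 0.704 CPM in *trm5-1* (25, 36 and 19 counts). Its genotypes overlapped, with a log2 fold change of -0.39 ± 0.45 (SE, adjusted p = 0.571, edgeR).

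*RD26*, a NAC factor induced by drought and the hormone, on chromosome 4 from 13707192 to 13709170, was the most variable of the 10 in wild type. Wild type held 311, 8.54 and 129 CPM of it and the mutant 165, 71.0 and 117 CPM. Wild type replicates 2 and 3 thus differed 36.4-fold and enclosed all mutant libraries, which differed 2.32-fold among themselves. edgeR gave a log2 fold change of -0.35 ± 1.05 (SE, adjusted p = 0.839). It turned to 0.79 without wild type replicate 2, to 0.54 with the replicate number as a block and to 0.68 with limma, so its direction is not set by these data.

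The target *RD29B*, which encodes a hydrophilic stress protein, lies on chromosome 5 from 21237021 to 21239531, next to *RD29A*. It was barely counted, with 5, 3 and 4 counts in wild type (0.370, 0.106 and 0.150 CPM) and 10, 20 and 17 in *trm5-1* (0.492, 0.763 and 0.630 CPM). All mutant libraries were above all wild type libraries. The log2 fold change was 1.72 ± 0.53 (SE, adjusted p = 0.0813, edgeR) and 2.29 without wild type replicate 2 (adjusted p = 0.0200, edgeR). Without wild type replicate 3 it was 1.37 (adjusted p = 0.214, edgeR). All wild type libraries lay below the minimum of the filter (10 counts at the median library size) and all *trm5-1* libraries above it, so the gene was tested only because it was higher in the mutant, and its test gives no support to the difference. The ratio of the summed counts, 47 against 12, scaled by library size, was 3.65. It carries the same selection and likewise gives no support to the difference. With so few counts, *RD29B* stayed near the limit of detection in both genotypes.

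*RAB18*, a dehydrin gene of chromosome 5 from 26518277 to 26519447, had 26.3, 8.01 and 13.5 CPM in wild type and 17.3, 38.4 and 22.2 CPM in *trm5-1*. Wild type replicate 2 was above 2 of the 3 mutant libraries, so the genotypes overlapped. edgeR gave a log2 fold change of 0.72 ± 0.49 (SE, adjusted p = 0.351). It was 1.30 without wild type replicate 2 (adjusted p = 0.0563), 0.39 without wild type replicate 3 (0.585) and 0.34 without *trm5-1* replicate 3 (0.705, edgeR). On the exons, *RAB18* shares 11 bases with AT5G66410, *ABI1* 22 with AT4G26070 and *ABF3* 24 with AT4G34020, and the library kit does not mark strand.

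**Figure D2:**
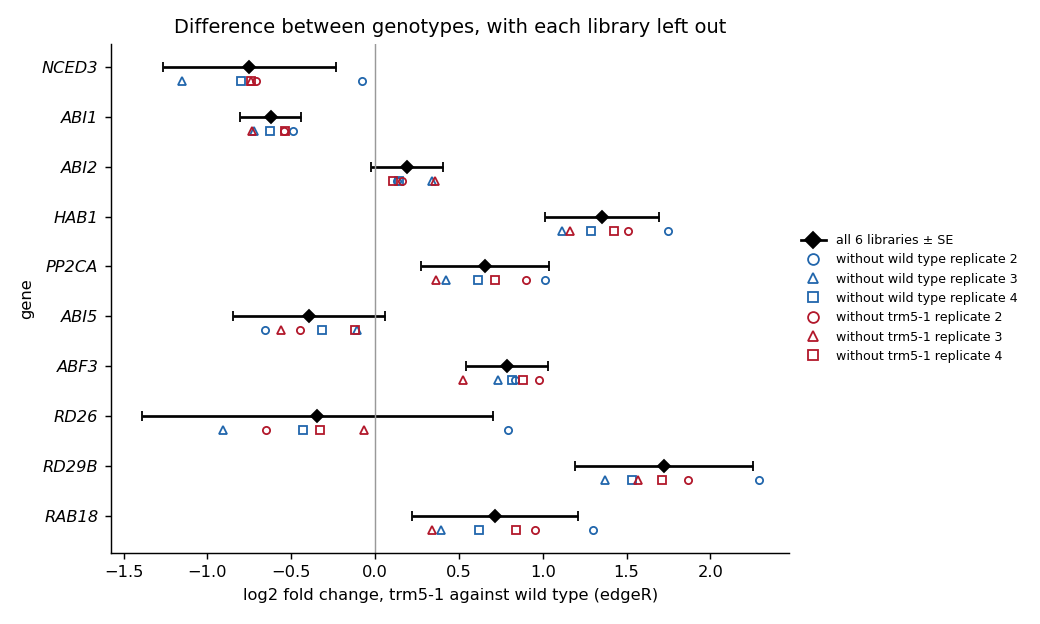
log2 fold change of each gene in *trm5-1* against wild type from edgeR (x axis), with all 6 libraries (black, ± standard error) and with each library left out (open symbols, blue for wild type and red for *trm5-1*). *RD26* lies at -0.35 with all libraries and at 0.79 without wild type replicate 2, the only one of the 10 genes that crosses 0, while *NCED3* comes to -0.08 without that library.

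Within wild type, most of the 10 genes had the same order of libraries. For 8 of the 10 genes replicate 2 was the highest and replicate 3 the lowest wild type library, all but *ABI2* and *ABI5*, in which the order was the opposite. The ratio of replicate 2 to replicate 3 was 4.82 for *NCED3*, 3.48 for *RD29B*, 3.28 for *RAB18*, 2.27 for *HAB1*, 2.16 for *PP2CA*, 1.33 for *ABI1* and 1.12 for *ABF3*. Over all genes tested, 48.2% were higher in wild type replicate 2 than in replicate 3. In *trm5-1*, 8 of the 10 genes were higher in replicate 3 than in replicate 2, all but *ABI2* and *RD26* (49.0% of all genes). These shares describe single libraries and have no replicate check.

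**Figure D3:**
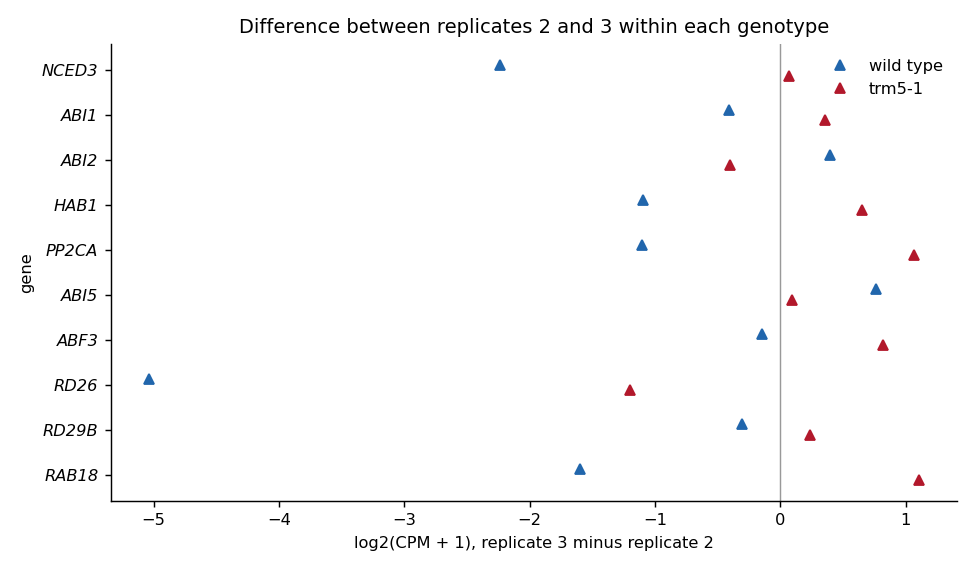
Difference in log2(CPM + 1) between replicate 3 and replicate 2 of the same genotype (x axis) for each of the 10 genes, wild type in blue and *trm5-1* in red, 1 library minus 1 library. In wild type 8 genes lie below 0, *RD26* farthest, and in *trm5-1* 8 genes lie above 0.

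The range over the libraries was wider in wild type than in *trm5-1* for 8 of the 10 genes, against 69.1% of all genes tested. Clock genes also separated the wild type libraries, and in both directions. All 7 clock genes listed are given here. *PRR7*, *GI*, *PRR5* and *CCA1* were 10.5, 6.77, 5.39 and 2.19 times as high in wild type replicate 3 as in replicate 2. *PRR9* was 57.6 times as high there, with 2 counts in replicate 2. *LHY* and *TOC1* were 3.36 and 2.61 times as high in replicate 2, so *CCA1* and *LHY* went opposite ways. The part of the hour of harvest in the levels of the abscisic acid genes was not tested.

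Per kilobase of annotated exon, the order of levels in wild type was *RD26* (78.8 ± 80.3 CPM per kb, SD, n = 3), *PP2CA* (57.8 ± 22.3), *ABI1* (41.7 ± 5.96), *NCED3* (34.2 ± 23.6), *RAB18* (14.6 ± 8.62), *HAB1* (4.77 ± 2.00), *ABF3* (4.67 ± 0.289), *ABI2* (4.05 ± 0.692), *ABI5* (0.673 ± 0.293) and *RD29B* (0.0962 ± 0.0653). Neighbours in this order differed by more than the larger of their SDs only at the steps from *RAB18* to *HAB1*, from *ABI2* to *ABI5* and from *ABI5* to *RD29B*. In *trm5-1* the order began with *PP2CA* (91.0 ± 33.6 CPM per kb), *RD26* (62.0 ± 24.7), *ABI1* (27.1 ± 4.10), *RAB18* (23.9 ± 10.2) and *NCED3* (20.3 ± 0.555). *HAB1* (12.1 ± 2.96 CPM per kb) was above *ABF3* (8.04 ± 2.57) by more than the larger SD there. The last 3 places were again those of *ABI2*, *ABI5* and *RD29B*, at 4.63, 0.523 and 0.289 CPM per kb.

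The 10 genes were set beside 89 genes of the wider pathway, which include them and of which 73 passed the filter. Of the 73, 11 were called, 7 higher and 4 lower in *trm5-1* (15.1%, against 11.4% of all genes tested), and the median log2 fold change was 0.16. All 11 lay outside the 10 followed here, and *CYP707A4* among them passed the filter through wild type alone. The called genes were most frequent among those of hormone turnover and transport, with 4 of 11 (3 higher and 1 lower, median log2 fold change 1.33). Synthesis genes had 1 of 7 (higher), phosphatases 1 of 8 (higher) and response targets 5 of 21 (2 higher and 3 lower). None of 8 receptor, 3 SnRK2 and 15 transcription factor genes were called by edgeR. An unadjusted p under 0.05 was reached by 0, 1 and 3 of them, against 32.7% of all genes tested. With DESeq2, *HB12* and *ABF3* passed among these, when 23.8% of all genes did. Without wild type replicate 2, *OST1*, *ABF1*, *NAC055* and *MYB44* passed in edgeR, when 37.6% of all genes did.

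**Figure D4:**
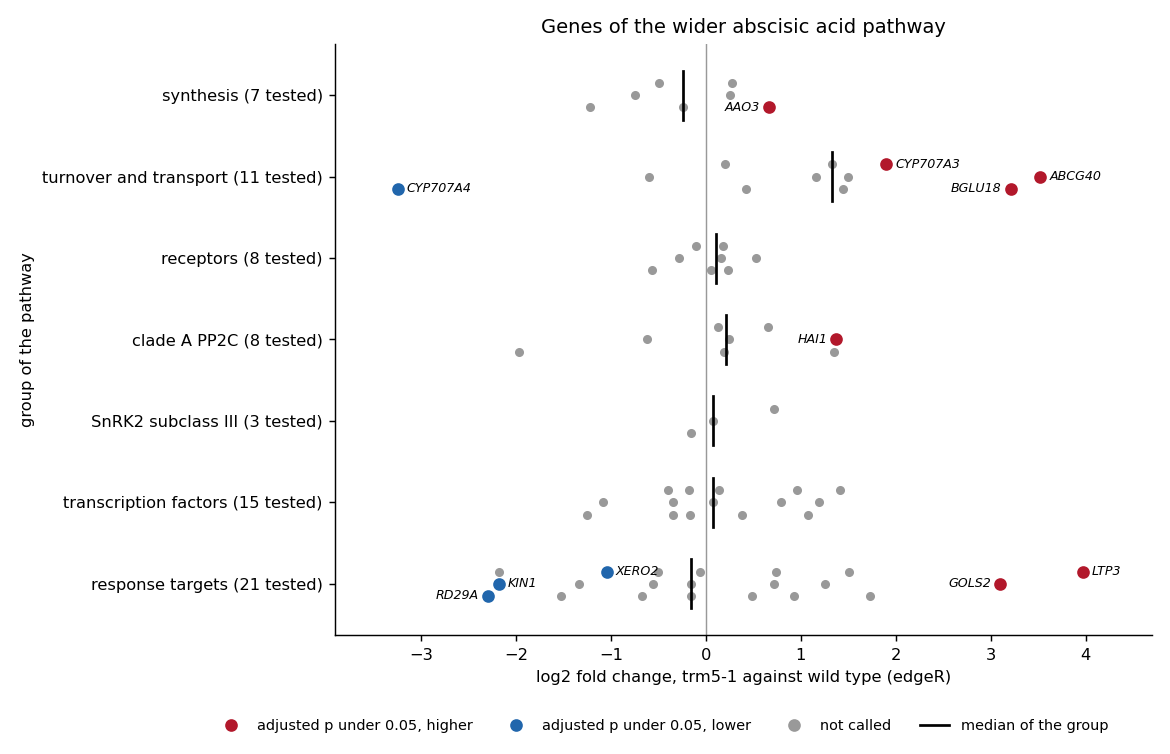
log2 fold change in *trm5-1* against wild type (x axis, edgeR, all 6 libraries) of the 73 tested genes of the wider pathway by group (y axis), with genes at an adjusted p under 0.05 in red (higher) or blue (lower), others in grey and the group median as a bar. The 11 called genes run from *CYP707A4* at -3.24 to *LTP3* at 3.97.

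Next to *NCED3* in synthesis, *AAO3*, whose oxidase makes the hormone from abscisic aldehyde, had 30.5, 25.9 and 27.7 CPM in wild type and 43.8, 44.9 and 44.8 CPM in *trm5-1*, a log2 fold change of 0.67 ± 0.12 (SE, adjusted p = 0.0321, edgeR). *AAO3* rose in all 3 mutant libraries. *ABA1*, which encodes zeaxanthin epoxidase, had a log2 fold change of -1.22 (adjusted p = 0.0672, edgeR).

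*CYP707A3*, one of the 8'-hydroxylase genes that start the breakdown of the hormone, rose from 130, 70.7 and 97.4 CPM in wild type to 353, 383 and 374 CPM in *trm5-1*, a log2 fold change of 1.90 ± 0.27 (SE, adjusted p = 0.0236, edgeR). *CYP707A4*, of the same family, had 9, 64 and 37 counts in wild type and 4, 1 and 6 in the mutant, a log2 fold change of -3.24 ± 0.70 (SE, adjusted p = 0.0409, edgeR). All its *trm5-1* libraries lay below the minimum of the filter, so it was tested only because it was higher in wild type. *BGLU18*, a beta-glucosidase that can free the hormone from its glucose ester, had 171, 219 and 200 CPM in wild type and 822, 2968 and 1659 CPM in *trm5-1*, a log2 fold change of 3.21 ± 0.53 (SE, adjusted p = 0.0279, edgeR). The importer gene *ABCG40* had 7.93, 4.36 and 5.05 CPM in wild type and 34.3, 99.7 and 63.1 CPM in *trm5-1*, a log2 fold change of 3.52 ± 0.46 (SE, adjusted p = 0.0211, edgeR). Among turnover and transport genes, those called thus include both breakdown and release of the hormone.

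Beside the 4 phosphatase genes above, *HAI1*, a further clade A member, had 2.67, 1.95 and 2.66 CPM in wild type and 7.73, 4.77 and 6.34 CPM in *trm5-1*, a log2 fold change of 1.37 ± 0.27 (SE, adjusted p = 0.0362, edgeR). Its difference was thus as large as that of *HAB1* (1.35) at a lower level. *HAB2*, the closest relative of *HAB1*, had 72.2, 37.9 and 52.1 CPM in wild type and 65.0, 63.6 and 63.1 CPM in *trm5-1* (adjusted p = 0.516, edgeR), with the genotypes overlapping. *HAI3*, of the same clade, had 10, 15 and 11 counts in wild type and 3, 1 and 6 in *trm5-1*. Its log2 fold change was -1.97 ± 0.61 (SE, adjusted p = 0.0814, edgeR), and it passed the filter through wild type alone. Of the 8 tested phosphatase genes, 6 were fitted higher and 2 lower. The kinase gene *OST1* had a log2 fold change of 0.72 (adjusted p = 0.110, edgeR). The homeobox genes *HB7* and *HB12*, which the hormone induces, had log2 fold changes of 1.41 and 1.19 (adjusted p = 0.129 and 0.106, edgeR).

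The targets moved in both directions. *RD29A* (LTI78), the direct neighbour of *RD29B* and responsive to cold as well as to the hormone, had 410, 465 and 452 CPM in wild type and 91.2, 91.2 and 88.7 CPM in *trm5-1*. Its log2 fold change was -2.29 ± 0.18 (SE, adjusted p = 0.0109, edgeR). The 1.72 of *RD29B* rests on 3 to 5 counts per wild type library and a filter passed through *trm5-1* alone. No contrast between the neighbours is drawn from it. The cold-induced genes *KIN1* and *XERO2* fell as well, with log2 fold changes of -2.18 and -1.04 (adjusted p = 0.0196 and 0.0285, edgeR). *KIN2*, next to *KIN1* and closely related to it, had a log2 fold change of -0.67 (adjusted p = 0.274, edgeR), and reads could be split between both. *GOLS2*, for galactinol synthesis, had 8.74, 2.66 and 4.90 CPM in wild type and 33.1, 62.6 and 41.4 CPM in *trm5-1*, a log2 fold change of 3.09 ± 0.49 (SE, adjusted p = 0.0260, edgeR). The lipid transfer protein gene *LTP3* had 2.44, 4.82 and 3.67 CPM in wild type and 8.42, 116 and 48.2 CPM in *trm5-1*, a log2 fold change of 3.97 ± 0.93 (SE, adjusted p = 0.0461, edgeR), with mutant replicate 3 far above replicate 2.

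The number of calls depended on which libraries entered the fit. Of the wider pathway 26 of 75 tested genes were called without wild type replicate 2, against 37.6% of all genes tested. Without wild type replicate 3 it was 7 of 76, against 525 lower and 417 higher of all 19607 tested. Without *trm5-1* replicate 2 it was 4 of 76, against 63 lower and 149 higher of 20186. It was 0 without *trm5-1* replicate 3, against 9 lower and 21 higher of 20142. Without wild type replicate 4, *trm5-1* replicate 4 or replicate 4 of both genotypes it was 0, as over all genes. The directions of the 11 called genes were the same in all these fits. For all 11 the genotypes did not overlap, so leaving out libraries could hardly turn them, and this gives no further support.

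Of the 73 tested genes of the wider pathway, 47 (64.4%) were higher in wild type replicate 2 than in replicate 3, as *RD26* was, among them 8 of 8 receptor genes but 3 of 7 synthesis and 7 of 15 transcription factor genes. The genes with the largest such ratios beside *RD26* follow. *RD20*, a caleosin gene, had 157, 2.52 and 63.7 CPM in wild type and 41.3, 67.1 and 49.2 CPM in *trm5-1*. The receptor gene *PYL5* had 188, 7.30 and 80.4 CPM in wild type and 76.8, 115 and 93.6 CPM in *trm5-1*. The exporter gene *DTX50* had 521, 23.8 and 219 CPM in wild type and 849, 552 and 684 CPM in *trm5-1*. Replicates 2 and 3 of wild type thus differed 62.4-fold, 25.8-fold and 21.9-fold, and none of the 3 genes was called. Other genes had the opposite order, with *CYP707A2*, *COR15A*, *COR15B*, *ABF1* and *P5CS1* 16.7, 15.4, 8.64, 6.44 and 6.01 times as high in replicate 3 as in replicate 2.

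The genes whose pattern over the 6 libraries was most like that of a followed gene were found by the root mean square difference of centred log2(CPM + 1). For *NCED3* these were *LAC8*, *MT1B* and AT4G25433, with differences of 0.059, 0.14 and 0.14 on a range of 2.24 in *NCED3*. For *RAB18* they were *NET4B*, AT2G35760 and *PAO4*, with differences of 0.10, 0.12 and 0.12 on a range of 2.13. For *RD29B* they were AT5G66120, AT3G16220 and AT2G01970, with 0.027, 0.028 and 0.029 on a range of 0.67, which the pseudocount compresses at so low a level. None of these 9 genes had an adjusted p under 0.05 in edgeR. This follows largely from the choice, since they were picked for likeness to genes that were not called.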

How the data were processed

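RNA-seq reads were trimmed by the authors with Trim Galore 0.4.2, mapped to TAIR10 with STAR 2.5.3 and counted per gene with featureCounts, whose settings are not given in the sources used here. The counts were deposited without normalization. A second table, deposited as a signal of counts divided by 1 size factor per library, served the limma alternative only. The tRNA-seq tables hold no mRNA and were not used.

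The test was edgeR 4.0.16 under R 4.3.3 (filterByExpr with its minimum of 10 counts at the median library size in 3 libraries, TMM, quasi-likelihood fit, no covariate, Benjamini-Hochberg adjustment over 19408 genes, threshold 0.05). Levels are CPM on TMM library sizes, log2 levels carry a pseudocount of 1, and the standard error is the size of the log2 fold change divided by the square root of F. The common biological coefficient of variation was 34.4%. The fit was tested on simulated data. Libraries held 14954658 to 26927531 counts. Labels do not say that replicates came from separate plants, although the methods call them biological, so p-values measure the spread between these libraries.

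Alternatives were DESeq2 1.42.0, limma 3.58.1 on log2 values, RLE and upper quartile normalization, no filter, a block for the replicate number, a minimum of 10 counts per library, each library left out, and replicate 4 left out of both genotypes. Named are all 10 genes, called genes of the wider lists, pathway neighbours, and for 3 genes the 3 most similar. *RD20*, *PYL5*, *DTX50*, *HB7*, *HB12*, *OST1*, *ABA1*, *KIN2* and *HAI3* were chosen after their values were seen. So were the genes named for their wild type ratios, the marker genes named and the untested genes. The 10 genes, the lists and the tests were chosen with earlier results of these data known. Gene models and sequence are from RefSeq (TAIR10.1). Figures were drawn with matplotlib 3.10.9.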

Additional observations from a re-analysis of the deposited data

How the results depend on the processing

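Of the 10 genes, 0 were called lower and 0 higher in the main test. DESeq2 called 1 lower and 2 higher, and upper quartile normalization 1 lower and 1 higher. Leaving out 1 library gave 0 lower and 0 to 2 higher, the 2 without wild type replicate 2. All other settings gave 0. In the wider lists (4 lower and 7 higher) DESeq2 called 7 lower and 12 higher, and the fits without 1 library or without replicate 4 of both genotypes 0 to 9 lower and 0 to 17 higher. Over all genes (1387 lower and 835 higher) DESeq2 called 3229 and 2004, and the fits with libraries left out 0 to 4334 and 0 to 3263, the highest without wild type replicate 2. Without wild type replicate 4, without *trm5-1* replicate 4 and without both, the counts were 0 and 0. The cause was not tested.

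With the replicate number as a block, 0 genes were called lower and 0 higher, also in the wider lists, and 2968 and 2283 genes had an unadjusted p under 0.05. Deviations of same-numbered libraries of both genotypes had correlations of -0.02, 0.00031 and 0.07, and those of differently numbered ones ran from -0.08 to 0.06. These values cannot tell whether the numbers pair the samples. The loss of all calls under the block is therefore a limit of the calls in the main test. The log2 fold change of *RD26*, -0.35, was 0.54 with the block, 0.68 with limma and -0.90 to 0.79 with 1 library left out. No other gene named with its range here changed direction: the 9 other followed genes and the 11 called genes kept theirs in all alternatives in which they were tested. The genotypes did not overlap for the 11 called genes or for *ABI1*, *HAB1*, *ABF3* and *RD29B*. For these, leaving out libraries could hardly have turned the direction. *RD29B* and *CYP707A4* were not tested with at least 10 counts in every library. Counts of 3 to 20 limit *RD29B*.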

Other observations

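Some genes of the wider pathway had too few counts for the test. *TSPO*, a membrane protein gene induced by the hormone, received 4, 4 and 8 counts in the wild type libraries (replicates 2, 3 and 4) against 6, 79 and 33 in the mutant, and was called by DESeq2, which tested it. The seed genes *EM1* and *EM6* had 0 to 3 counts in each library, and of the seed regulators *ABI3* had 1 count in 1 library and *ABI4* 0 in all 6. The dioxygenase genes *NCED5* and *NCED9* had 3 to 13 and 3 to 29 counts, against 945 to 2283 for *NCED3*.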
